A study of Mus musculus with 6 samples.

Results

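The genes described here are 10 members of the amino acid stress response that runs through the transcription factor ATF4: Atf4 itself, the further transcription factors Atf3, Atf5 and Ddit3, the enzymes Asns, Psat1, Phgdh and Chac1, and the regulators Trib3 and Sesn2. All 10 were measured, among 18193 genes read by a probe set with 1 gene symbol, and each was read from its brightest probe set, the one with the highest mean over the 6 arrays. They were put together because Trib3, Chac1 and Asns were lower in the irradiated culture than in its own control in all 3 experiments. The irradiated minus control values of the members are therefore given as a description, with no test. The cells were mouse mesenchymal stem cells, which can form fat, bone and cartilage, bought from a commercial supplier and grown with 1 µM rosiglitazone, 1 µM dexamethasone, 100 µM isobutylmethylxanthine and 5 µg/ml insulin, compounds given anew 48 h earlier that are widely used to turn such cells into fat cells. Irradiated cultures received a continuous-wave terahertz laser beam at 2.52 THz (a wavelength of 118.8 µm) for 2 h, and control cultures stood next to them without the beam, both kept between 26 and 27 °C. RNA was extracted immediately after the exposure. There were 3 experiments with 1 irradiated and 1 control culture in each, hence 6 Affymetrix arrays, and their number limits the precision. No culture without the compounds, and none deprived of an amino acid, was compared.

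When a cell runs short of an amino acid, or misfolded proteins build up in its endoplasmic reticulum, kinases phosphorylate the translation factor eIF2. General protein synthesis slows, while the Atf4 transcript, whose upstream reading frames normally hold translation back, is translated more. The ATF4 protein then binds, mostly with a C/EBP partner, to short promoter elements called C/EBP-ATF response elements, and turns on genes for amino acid synthesis and uptake. It also turns on regulators that limit growth or, under lasting stress, favour cell death. ATF4 is controlled largely through translation, so the level of its transcript is no direct measure of its activity.

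The promoters that hold such an element are shown because ATF4 acts through such elements. The sequences are RefSeq promoters of the GRCm38.p6 build, which reach from 250 bases before the annotated start site to 50 bases after it. All 10 members matched, with 12 windows in all, since Atf5 and Psat1 had more than 1. They were searched on both strands for the core TGATGNAA. The core was found in 4 of the 12 windows, those of Asns, Chac1, Atf3 and Trib3, and in 3.97% of all 32851 promoter windows of that length. The cyclic AMP response core TGACGT was in 1 of the 12 windows, that of Atf3, and in 7.51% of all windows, and the endoplasmic reticulum stress element, CCAAT followed by CCACG with 9 bases between them, was in 0 of the 12 and in 0.119% of all. Neither overlapped a TGATGNAA match in a member. The TGATGNAA match is in capitals, and each run is written 5′ to 3′ along its gene. For Asns, Chac1 and Atf3 it is the 250 bases before the start site, at chr6:7693210-7693459 on the minus strand, chr2:119350992-119351241 on the plus strand and chr1:191183334-191183583 on the minus strand. For Trib3 it is 30 bases around the match, at chr2:152344028-152344057 on the minus strand.
Asns: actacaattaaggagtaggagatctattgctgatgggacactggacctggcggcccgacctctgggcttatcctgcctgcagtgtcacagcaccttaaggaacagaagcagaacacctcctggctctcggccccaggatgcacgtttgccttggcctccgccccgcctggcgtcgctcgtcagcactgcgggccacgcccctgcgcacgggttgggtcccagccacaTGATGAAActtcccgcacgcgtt
Chac1: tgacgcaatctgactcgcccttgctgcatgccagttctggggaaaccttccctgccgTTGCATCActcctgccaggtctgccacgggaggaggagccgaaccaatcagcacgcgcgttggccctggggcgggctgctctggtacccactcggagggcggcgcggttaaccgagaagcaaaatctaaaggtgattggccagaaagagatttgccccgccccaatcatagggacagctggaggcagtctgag
Atf3: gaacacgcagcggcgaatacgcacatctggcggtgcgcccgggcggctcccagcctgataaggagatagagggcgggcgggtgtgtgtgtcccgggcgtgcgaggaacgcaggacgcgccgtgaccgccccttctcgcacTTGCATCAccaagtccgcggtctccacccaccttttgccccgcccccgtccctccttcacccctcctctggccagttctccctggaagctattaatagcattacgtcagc
Trib3: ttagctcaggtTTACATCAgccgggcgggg
The Asns match begins 23 bases before the start site and lies on the gene's own strand. The human ASNS promoter is known to carry an element of this kind, through which amino acid shortage acts. In Chac1 and Atf3 the capitals are the reverse complement of TGATGCAA, 193 and 110 bases before the start site. In Trib3 they are the reverse complement of TGATGTAA and begin at base 15 after the start site. Of 14452 measured genes with a promoter window, 468 held the core in at least 1 window. Their median irradiated minus control difference was -0.01 log2 units, as was that of all 14452 genes, and 13.5% of them were lower in all 3 experiments, against 13.0%. A match describes these letters, and the windows of Sesn2, Phgdh, Psat1, Atf4, Atf5 and Ddit3 held none.

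Values are log2 expression values, made by the authors with the RMA procedure. A difference of 1 log2 unit is 2-fold, and levels of different probe sets cannot be set against each other as amounts of RNA. All 10 members lay at or above the median gene level of 6.46, with means between 7.86 for Trib3 and 12.19 for Atf4, so that all passed the filter on dim genes used as an alternative. Markers were read in the same way. All 7 measured markers of fat cells reached the median gene level, as did 6 of 7 stromal markers (Thy1 stood at 3.88), 7 of 8 macrophage markers and 2 of 3 osteoblast markers. It was reached by 0 of 5 endothelial markers and 1 of 4 on the T and B cell list. That 1 was Ptprc (9.82), while Cd3e, Cd3g and Cd79a lay below the median gene. In bulk RNA, fewer cells of a type and less RNA per cell cannot be told apart. The control array of experiment 3 stood apart in 1 indirect sign of RNA quality, the difference between the 3′ and 5′ control probe sets. It was 0.68 log2 units for actin, where the other 5 arrays lay between 0.50 and 0.57. For Gapdh it was 0.11, where they lay between -0.10 and -0.08. Whether RNA quality itself differed was not measured.

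Over all genes no difference passed the test. limma, blocked by experiment, called 0 of 18193 genes (0%), and no Benjamini-Hochberg adjusted p was under 0.995. At an unadjusted p under 0.05 it gave 603 genes, or 3.31%, of which 344 (1.89% of all genes) were lower. In all 10 members the mean irradiated minus control difference was below 0, from -0.36 for Trib3 to -0.02 for Atf4, with a median of -0.14. Of all genes 53.3% were below 0, and their median was -0.01 with an SD over genes of 0.11. In 7 of the 10 members the mean was smaller in size than its SD over the 3 experiments. Of the members 5 were lower in all 3 experiments (Trib3, Chac1, Asns, Atf5 and Phgdh), beside 12.8% of all genes, and 0 were higher in all 3, beside 8.23% of all genes. Since the members were picked from this contrast, nothing is read from these counts.

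**Figure D1:**
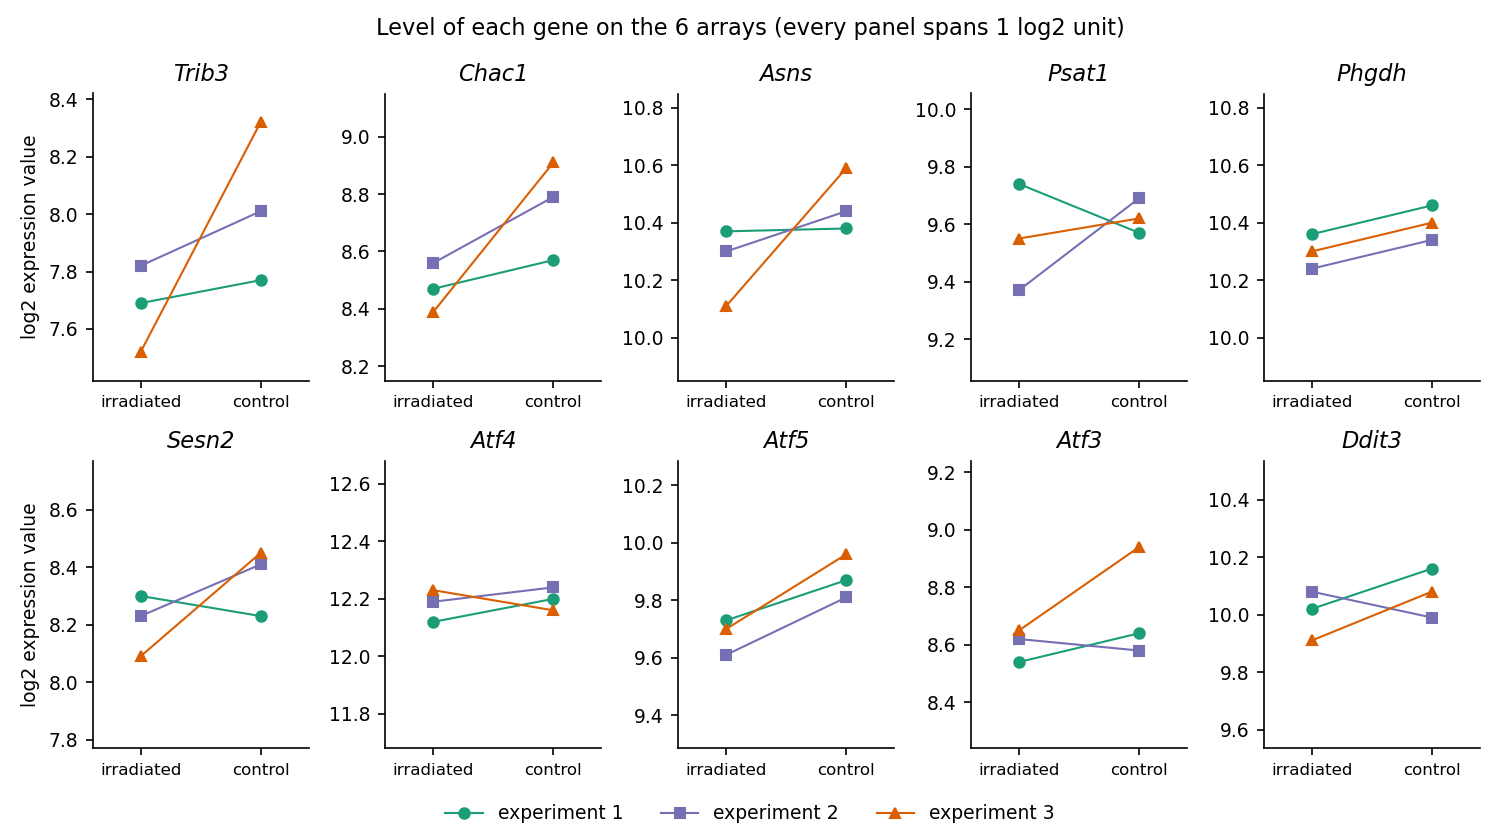
Log2 expression value of each of the 10 genes on the 6 arrays, with the irradiated culture on the left and its own control on the right of each panel, and a line joining the cultures of 1 experiment. Every panel spans 1 log2 unit. The lines of Trib3, Chac1 and Asns are steepest in experiment 3, whereas those of Atf4 and Phgdh are nearly flat.

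Trib3, Chac1 and Asns, the genes that prompted the choice, had their largest differences in experiment 3. Trib3 encodes a pseudokinase that ATF4 induces and that in turn restrains ATF4 and AKT. Its levels were 7.69, 7.82 and 7.52 in irradiated cultures of experiments 1 to 3, against 7.77, 8.01 and 8.32 in their controls. The irradiated culture of experiment 3 was the lowest of the 6 and its control the highest, while the groups overlapped, since the irradiated culture of experiment 2 lay above the control of experiment 1. The differences were -0.08, -0.19 and -0.80 log2 units, with a mean of -0.36 ± 0.39 (SD, n = 3 experiments), or 1.28-fold lower. The share of all genes as low as Trib3 or lower was 37.5% in experiment 1, 15.4% in experiment 2 and 0.0495% in experiment 3. Trib3 was picked from these differences, so nothing is read from these shares. With experiment 3 left out the mean was -0.14.

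Chac1 encodes an enzyme that breaks down glutathione and is a target downstream of ATF4. It stood at 8.47, 8.56 and 8.39 in irradiated cultures and at 8.57, 8.79 and 8.91 in controls. All irradiated values lay below all controls, although irradiated culture 2 (8.56) lay just under control 1 (8.57). The differences were -0.10, -0.23 and -0.52, with a mean of -0.28 ± 0.22 (SD, n = 3), or 1.22-fold lower, and -0.17 without experiment 3. Chac1 had 1 probe set, so that no other reading of it was at hand.

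Asns, asparagine synthetase, makes asparagine from aspartate and glutamine. Its levels were 10.37, 10.30 and 10.11 in irradiated cultures, against 10.38, 10.44 and 10.59 in controls. The groups did not overlap, but in experiment 1 the difference was -0.01, the smallest with which any of these genes met the condition of being lower in every experiment. The differences of experiments 2 and 3 were -0.14 and -0.48, the mean was -0.21 ± 0.24 (SD, n = 3), or 1.16-fold lower, and without experiment 3 it was -0.08. Genes just outside the condition were Atf3, at 0.04 in experiment 2, and Sesn2 and Atf4, at 0.07 in experiments 1 and 3. The irradiated arrays lay wholly below the controls in 3 members, Chac1, Asns and Atf5, beside 5.36% of all genes, and wholly above them in 0 members, beside 2.9% of all genes. Chac1 and Asns prompted the choice, so nothing is read from these counts. All 10 members were also among the brighter genes, for which these shares were not counted.

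**Figure D2:**
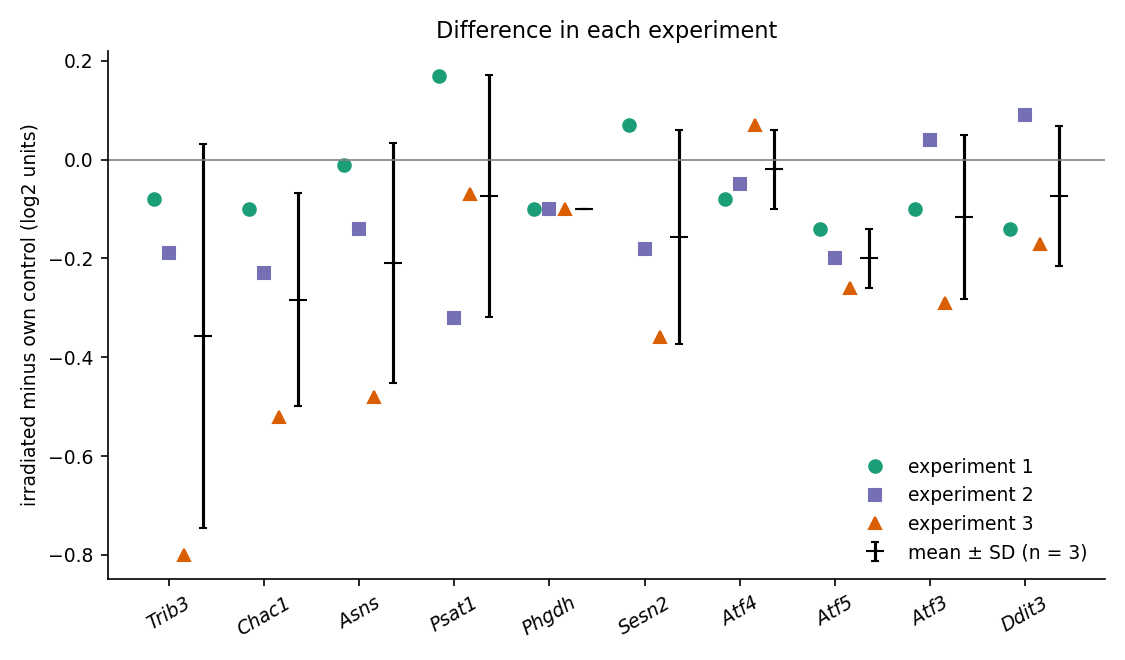
Irradiated minus own control, in log2 units, for each gene in experiments 1, 2 and 3 (circle, square, triangle), with the mean ± SD over the 3 experiments in black. Trib3 reached -0.80 in experiment 3, Phgdh was at -0.10 in every experiment, and Atf4 stayed within 0.08 of 0.

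The serine enzymes Phgdh and Psat1, which catalyse the opening steps of serine synthesis from a glycolytic intermediate, differed less. Phgdh stood at 10.36, 10.24 and 10.30 in irradiated cultures and at 10.46, 10.34 and 10.40 in controls, which is a difference of -0.10 in each experiment at the 2 decimals of the deposited values. The groups overlapped, because the level also differed between experiments. Its 3 other probe sets had means of -0.11, -0.02 and -0.04, and the last 2 were at 0.02 in experiment 1. Psat1 stood at 9.74, 9.37 and 9.55 in irradiated cultures and at 9.57, 9.69 and 9.62 in controls, and the groups overlapped. Its differences were 0.17, -0.32 and -0.07, with a mean of -0.07 ± 0.25 (SD, n = 3), which was 0.05 without experiment 2 and -0.20 without experiment 1. Its other probe set had a mean of 0.02, so the probe sets of Psat1 give no common sign. In experiment 2, where Psat1 was lowest, the fat-cell markers were also low. Their mean difference was -0.51 in that experiment, against 0.09 and 0.04 in experiments 1 and 3. In experiment 2 they ran from -1.17 for Lipe to -0.12 for Fabp4 and Lpl. Over all experiments 7 of 7 fat-cell markers, all among the brighter genes, had a mean below 0, beside 53.3% of all genes of any brightness. These means ran from -0.42 for Lipe, whose other probe set was at 0.01, to -0.0067 for Lpl, with a median of -0.04. The mean level of the list ran from 11.92 to 12.34 in irradiated cultures and from 12.04 to 12.43 in controls. The part of the fat-cell markers in the Psat1 value was not tested.

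Sesn2 encodes sestrin 2, a leucine-binding protein that holds back the growth kinase complex mTORC1. Its levels were 8.30, 8.23 and 8.09 in irradiated cultures, against 8.23, 8.41 and 8.45 in controls. Irradiated cultures 2 and 3 lay below their controls and culture 1 above its own, and the groups overlapped. The differences were 0.07, -0.18 and -0.36 (mean -0.16 ± 0.22, SD, n = 3), and the mean was -0.06 without experiment 3 and -0.27 without experiment 1. The other probe set had a mean of -0.10, with -0.05, 0 and -0.26 in the 3 experiments.

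Among the transcription factors, Atf5 differed most evenly and Atf4 least. Atf5 is induced by the same stress and its transcript, like that of Atf4, is controlled by upstream reading frames. It stood at 9.73, 9.61 and 9.70 in irradiated cultures and at 9.87, 9.81 and 9.96 in controls, without overlap. Its differences of -0.14, -0.20 and -0.26 gave a mean of -0.20 ± 0.06 (SD, n = 3), or 1.15-fold lower, and -0.17 without experiment 3, which moved it less than it did Trib3, Chac1 or Asns. It was read by 1 probe set.

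Atf4 had levels of 12.12, 12.19 and 12.23 in irradiated cultures and 12.20, 12.24 and 12.16 in controls. All 6 lay within 0.12 of each other and the groups overlapped. The mean difference was -0.02 ± 0.08 (SD, n = 3), and it was 0.01, -0.0050 and -0.07 without experiments 1, 2 and 3. A further probe set of Atf4, whose name ends in x_at, the manufacturer's mark for probes that can also bind other transcripts, read 10.94, 11.07 and 10.69 in irradiated cultures and 10.62, 10.96 and 11.18 in controls. Its differences were 0.32, 0.11 and -0.49, so in experiment 3 it lay near Asns (-0.48) and away from the brightest Atf4 probe set (0.07). A dim one, at a mean level of 3.92, gave -0.42, 0.10 and -0.07.

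Atf3, a repressor and activator of the same family, stood at 8.54, 8.62 and 8.65 in irradiated cultures and at 8.64, 8.58 and 8.94 in controls. The control of experiment 3 lay above all other arrays, and the rest overlapped. The mean difference was -0.12 ± 0.17 (SD, n = 3), with -0.03 without experiment 3 and -0.20 without experiment 2. Ddit3, also called CHOP, which favours cell death under lasting stress, stood at 10.02, 10.08 and 9.91 in irradiated cultures and at 10.16, 9.99 and 10.08 in controls, with overlap. Its mean was -0.07 ± 0.14 (SD, n = 3), at -0.14, 0.09 and -0.17, and it was -0.03 without experiment 3, -0.16 without experiment 2 and -0.04 without experiment 1. A dimmer probe set with a mean level of 6.80 gave -0.30, 0.40 and -0.45, with the same signs.

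Different probe sets of Trib3, and of Asns, gave like values. The 10 members had 20 probe sets with 1 symbol, of which 19 had a mean below 0. The other Trib3 probe set gave -0.14, -0.24 and -0.69, with the same mean of -0.36, and the other Asns probe set gave -0.04, -0.21 and -0.41, with a mean of -0.22. The brightest sets of Trib3 and Asns end in x_at, and the others of these genes do not. All probe sets of Phgdh with 1 symbol end in x_at, so no reading of Phgdh was free of that mark. These readings come from the same RNA and are no replicates.

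The experiments differed in how low the members stood. Their median difference was -0.09, -0.16 and -0.28 log2 units in experiments 1, 2 and 3, whereas the median gene stood at -0.03, -0.01 and 0. In experiment 3 the differences ran from -0.80 to 0.07. Of the 10 members 8, 8 and 9 were below 0 in experiments 1, 2 and 3, beside 56.4%, 50.1% and 48.5% of all genes. For 7 members experiment 3 held the lowest difference, a count in which Phgdh is not included and for which no share of all genes was counted. The control of experiment 3 was the highest array for 6 of the 10 members, beside 17.3% of all genes, and its irradiated culture was the lowest for 5, beside 15.8%. Trib3, Chac1 and Asns, which prompted the choice, are in each of these counts of members, so nothing is read from them. The mean of Trib3, Chac1 and Asns, each centred on its own 6 arrays, was -0.10, -0.05 and -0.27 in irradiated cultures 1 to 3, against -0.04, 0.14 and 0.33 in the controls. Both cultures of experiment 3 were therefore furthest from the mean, on opposite sides. The control that was highest is the array with the larger 3′ to 5′ difference in actin and Gapdh, and the part of RNA quality in the values of experiment 3 was not tested. The median over the members was -0.08 without experiment 3 and -0.21 without experiment 1. Marker lists of other cell types differed between the experiments too. The 8 measured macrophage markers, 4 of them above 0 and 3 below in their mean, averaged -0.16, -0.0063 and 0.20 in experiments 1, 2 and 3. In experiment 3 Cd14 was at 0.79 and Itgam at 0.65, while the others ran from -0.34 for Fcgr1 to 0.23 for Csf1r. The mean level of that list ran from 10.24 to 10.91 in irradiated cultures and from 10.40 to 10.73 in controls. The 3 measured osteoblast markers, all above 0 in their mean, averaged -0.11, 0.55 and 0.45, with Ibsp at 0.98 in experiment 2 and 0.85 in experiment 3. Their mean level ran from 7.78 to 8.10 in irradiated cultures and from 7.34 to 8.21 in controls. The part of these cell types in the members' values was not tested.

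**Figure D3:**
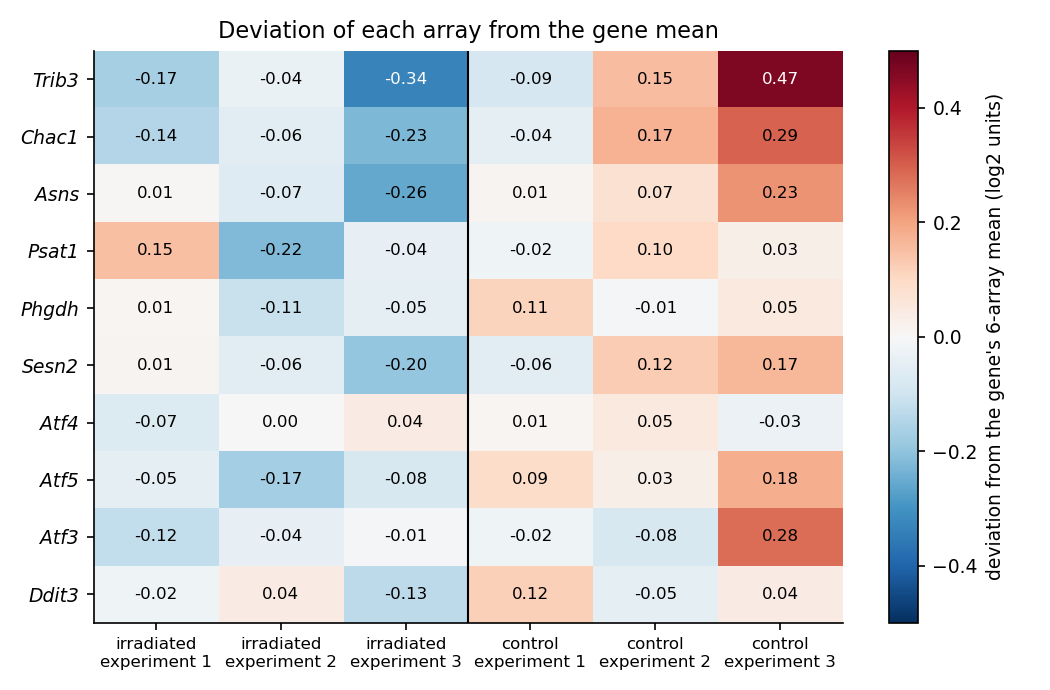
Deviation of each array from the gene's own mean over the 6 arrays, in log2 units, with the irradiated cultures of experiments 1 to 3 left of the black line and the controls right of it. Trib3, Chac1, Asns and Sesn2 are low in irradiated culture 3 and high in control 3, and Atf4 shows no such contrast.

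Across the 6 arrays the members did not all vary together. The likeness to the mean of Trib3, Chac1 and Asns, as Pearson's r over 6 arrays that come in 3 pairs, was 0.933 for Sesn2, 0.731 for Atf5 and 0.671 for Atf3. It was 0.414 for Ddit3, 0.367 for Phgdh, 0.232 for Psat1 and -0.156 for Atf4. Over all genes 0.341% had an r at or above that of Sesn2, and 62.7% at or above that of Atf4. The genes outside the members whose pattern was most like it were taken from 785 genes that reached the median gene level and spanned at least 0.5 log2 units. They were Ranbp6, of the importin family (r = 0.970), Hint3 (0.950), the hyaluronan synthase Has1 (0.944), the ribosome assembly kinase Riok2 (0.925), Lst1 (0.917) and the interferon-induced Gbp7 (0.917). In experiment 3 they differed by between -0.63 for Lst1 and -0.50 for Hint3. In experiment 1 Ranbp6, Hint3 and Riok2 were above 0, at 0.04, 0.04 and 0.12, and Has1 was at 0. Gbp7 was lower in every experiment, at -0.23, -0.24 and -0.59, and the other probe set of Ranbp6 had a mean of 0.18 with the opposite sign. The 3 other probe sets of Riok2 ran from -0.01 to 0.05, against -0.20 for its brightest. With 6 arrays and many genes such values describe the arrays and carry no test.

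The remaining genes of the pathway were read from 8 lists, of 115 entries and 109 measured genes. Of these 109 genes limma with Benjamini-Hochberg called 0, with adjusted p values of at least 0.995, and 3 had an unadjusted p under 0.05, all lower (3.31% of all genes had one in either direction). Of the 109, 76 were below 0 (53.3% of all genes were), 23 were lower in all 3 experiments (12.8% of all genes were) and 14 had all irradiated arrays below all controls (5.36% of all genes had). Their median difference was -0.04, where that of all genes was -0.01. The single genes ranged from -0.33 to 0.18 log2 units, and the widest 95% confidence bounds were -0.67 and 0.66. Most of the 109 genes passed the filter on dim genes, and bright genes leaned lower by themselves. Of the 9099 genes that passed it, limma gave 178 lower and 62 higher at an unadjusted p under 0.05. Of all 18193 genes it gave 344 lower and 259 higher. The shares of all genes are thus not matched for brightness, and its part in the counts of the lists was not tested. The lists were chosen with earlier results of these data known, and no list was tested as a set.

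Aminoacyl-tRNA synthetases load amino acids onto tRNAs, and several are ATF4 targets. Of 18 measured, 0 passed, and 16 were below 0 and 2 above, where 53.3% of all genes were below 0. In all 3 experiments 6 were lower, beside 12.8% of all genes, and in 5 the irradiated arrays lay wholly below the controls, beside 5.36% of all genes. All 18 synthetases were among the brighter genes, for which these shares were not counted. The median was -0.05, with -0.10, -0.10 and -0.03 in the 3 experiments. Yars, the tyrosine enzyme, had levels of 8.37, 8.23 and 8.31 in irradiated cultures and 8.54, 8.48 and 8.49 in controls, without overlap, and differed by -0.20 (SE 0.08, limma adjusted p 0.995). Aars, the alanine enzyme, stood at 10.33, 10.28 and 10.30 in irradiated cultures against 10.45, 10.54 and 10.50 in controls, also without overlap, and differed by -0.19 (SE 0.08), with -0.19 in its other probe set. Wars, the tryptophan enzyme, was at -0.17, or -0.10 without experiment 2, and all 4 of its probe sets lay between -0.19 and -0.12. Unlike Trib3 and Asns, Yars and Aars were not furthest from 0 in experiment 3: Yars was at -0.17, -0.25 and -0.18 and Aars at -0.12, -0.26 and -0.20. The other lists had fewer such genes. Those lower in all 3 experiments numbered from 0 (relatives of members) to 4 (serine, one-carbon and amino acid synthesis), and those without overlap from 0 to 3. For the 14 other ATF4 targets these counts were 2 and 0, and for the 16 chaperones and IRE1 and ATF6 targets 2 and 0.

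The list of serine, one-carbon and amino acid synthesis had 12 measured genes, of which 0 passed, 10 were below 0 and 2 above, with a median of -0.09. Cth, which makes cysteine from cystathionine, stood at 7.58, 7.26 and 7.62 in irradiated cultures and at 7.73, 7.99 and 7.74 in controls, without overlap. Its differences were -0.15, -0.73 and -0.12, so the mean of -0.33 (SE 0.13, limma adjusted p 0.995) came mostly from experiment 2 (-0.14 without it), that of the low fat-cell markers, whose part was not tested. The mitochondrial folate enzyme Mthfd2 was at -0.17, or -0.11 without experiment 3, with -0.20 in its other probe set, and Pck2, mitochondrial phosphoenolpyruvate carboxykinase, at -0.16 in both of its own. Of 13 amino acid transporters 0 passed, 9 were below 0 and 4 above, with a median of -0.06 that was -0.0050 without experiment 3. The arginine carrier Slc7a1 was lower in every experiment, at -0.13, -0.12 and -0.25, without overlap, and all 3 of its probe sets lay between -0.22 and -0.16. The glutamine carrier Slc38a1 was at -0.21, mostly from experiment 1 (-0.41; -0.11 without it), and the cystine carrier Slc7a11, itself a target of ATF4, at 0.15 (0.045 without experiment 3).

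Of 16 eIF2 kinases and eIF2 regulators 0 passed, 10 were below 0 and 6 above, with a median of -0.04 that was -0.0050 without experiment 2 and -0.07 without experiment 3. Gcn1, a partner of the amino acid sensing kinase GCN2, was at -0.18, but its 5 probe sets ran from -0.27 to 0.16. Nck1, an adaptor that acts on eIF2 phosphorylation, was at 0.16, with 0.06 without experiment 3 and 0.27 without experiment 1. Eif2b3, a subunit of the exchange factor of eIF2, was at -0.14, with -0.085 without experiment 2. Of 15 ATF4 partners and related factors 0 passed, 7 were below 0 and 7 above, with a median of 0. Nfe2l1 was at -0.18 and without overlap, Cebpa, a regulator of fat-cell formation, at -0.18 from -0.61 in experiment 2 (0.04 without it; -0.31 without experiment 3), and Crebzf at 0.13, with 0.01 without experiment 3 and 0.27 without experiment 1.

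Of 14 other ATF4 targets 0 passed, 10 were below 0 and 4 above, with a median of -0.05 that was 0.02 without experiment 3 and -0.08 without experiment 1. The stress-responsive Ndrg1 stood at -0.42, 0.17 and -0.66, the translation inhibitor Eif4ebp1 at 0.15, -0.38 and -0.25, and the hormone gene Fgf21, at a mean level of 4.75, at 0.68, -0.46 and 0.33, of no single sign. The 5 probe sets of Ndrg1 had means from -0.30, that of the brightest, to -0.04. With 1 experiment left out, Ndrg1 ran from -0.54 to -0.13, Eif4ebp1 from -0.32 to -0.05 and Fgf21 from -0.07 to 0.51. Chaperones and targets of the other branches of the unfolded protein response had a median of -0.02 over 16 genes, of which 0 passed, 12 were below 0 and 4 above. Xbp1 was at -0.17, Manf, a secreted protein of the endoplasmic reticulum, at 0.15 and the chaperone Hyou1 at -0.09. With 1 experiment left out, Xbp1 ran from -0.27 to -0.07 and Hyou1 from -0.15 to -0.04, both nearest to 0 without experiment 2. Relatives of the members showed no common sign: of 5 genes 0 passed, 2 were below 0 and 3 above, with Trib1 at -0.10, Sesn1 at -0.09 and Sesn3 at 0.08, against -0.36 for Trib3 and -0.16 for Sesn2. With 1 experiment left out, Trib1 ran from -0.16 to -0.04 (nearest to 0 without experiment 2), Sesn1 from -0.23 (without experiment 2) to -0.03 and Sesn3 from 0.04 (without experiment 3) to 0.16. The difference between a member and its relative was not tested.

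**Figure D4:**
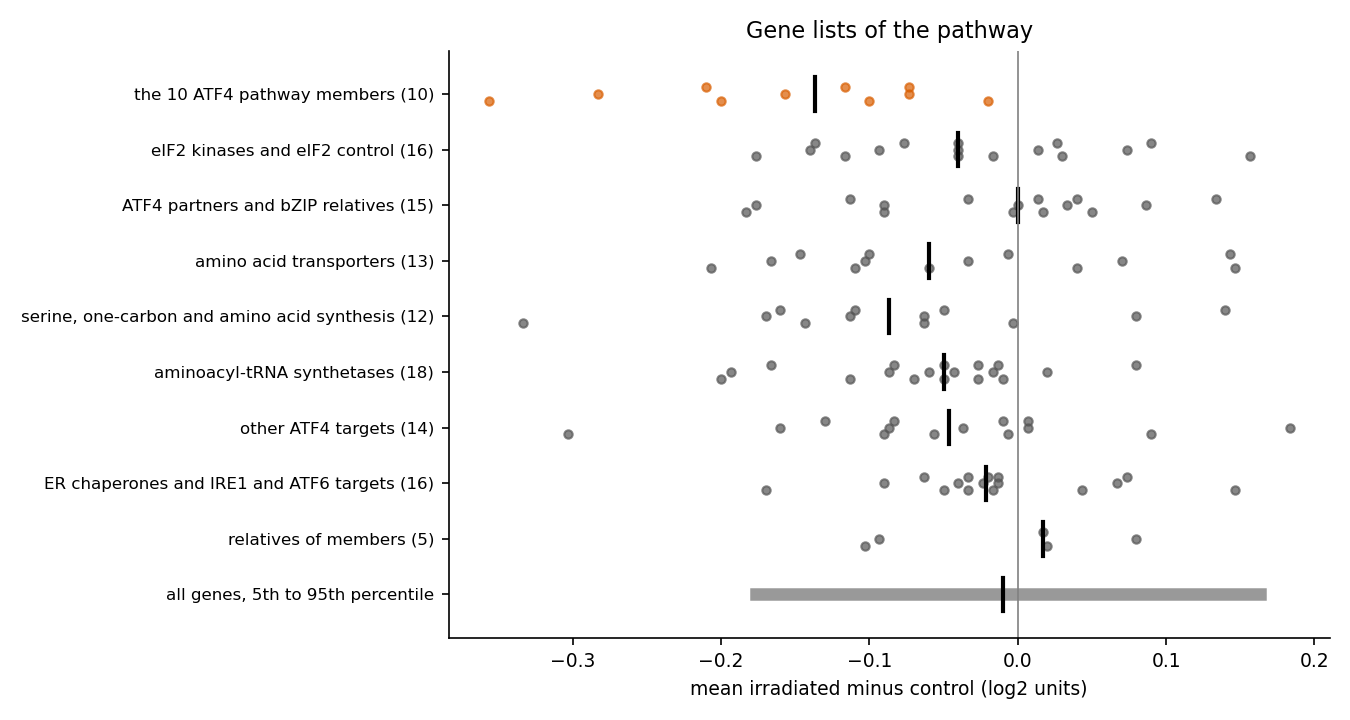
Mean irradiated minus control difference, in log2 units, of each gene (dots) in the set of 10 members and in the 8 lists, with the median of each as a black bar and the number of genes in brackets. The grey bar spans the 5th to the 95th percentile of all genes, -0.18 to 0.16. The median of the members, which were picked from this contrast, lies at -0.14, and the list medians lie between -0.09 and 0.02.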

How the data were processed

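Total RNA (200 ng) was labelled as biotinylated cRNA for Affymetrix mouse arrays, per the labels' protocols. Each probe set's deposited value is a log2 expression value made by the authors with RMA, per the submitters' processing notes, which also name affy and limma, with versions not given in the sources used here. The log base was inferred from the range (1.73 to 14.53). RMA equalises the arrays' distributions, which hides any change shared by all transcripts. It tends to understate changes of dim probe sets.

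Of 45101 probe sets 64 were controls, and 34945 had 1 symbol in the platform annotation, 932 several and 9160 none. 2 probe sets that name Phgdh with another gene were left out. Synthetase symbols were matched through RefSeq synonyms. The test was limma 3.58.1 (R 4.3.3), with the experiment as a block, as the series' design text pairs each irradiated culture with its control, over 18193 genes with Benjamini-Hochberg adjustment at 0.05. Deviations of paired arrays from their group means correlated at 0.15, -0.090 and -0.012. The code was tested on simulated data. The members and lists were chosen with earlier results of these data known. The text names all members, the 3 genes per list with the largest absolute difference and the 6 most alike genes. Alternatives were no block, all probe sets, the median over probe sets, genes at or above the median level, an intensity trend, centred arrays and each experiment left out.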

Additional observations from a re-analysis of the deposited data

How the results depend on the processing

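limma with Benjamini-Hochberg called 0 genes in every setting tried. Without the replicate block it called 0 (649 at an unadjusted p under 0.05), with all 45037 probe sets 0 (1696), and with 1 experiment left out 0 (495 to 619). With the filter on dim genes it called 0 of 9099 (240). Of these 240 genes 178 were lower and 62 higher, whereas of the 1696 probe sets 790 were lower and 906 higher. The number of members lower in every experiment used was 5 under the settings that kept all experiments and 6 to 7 with 1 left out. Leaving 1 experiment out can only keep or raise this count, so its rise says nothing about the members. The median over the members was -0.12 with the median over probe sets, -0.15 with centred arrays, and -0.21 to -0.075 with 1 experiment left out. Of the members, Atf4 had the opposite sign without experiment 1 (0.01) and Psat1 without experiment 2 (0.05). Of the other genes Cebpa turned to 0.04 without experiment 2 and Fgf21 to -0.065 without experiment 1. The bZIP list stood at -0.013 with the median over probe sets and at -0.010 to 0.020 with 1 experiment left out, the transporters at -0.10 among the brighter genes and at -0.080 to -0.0050 with 1 left out, and the list of chaperones and IRE1 and ATF6 targets at -0.0017 with the median over probe sets. The causes were not tested. The list of relatives turned to -0.010 and -0.035 without experiments 1 and 2. With 3 pairs the mean was smaller in size than its SD in 7 of 10 members. Detection calls were not used here, so no probe set is called absent.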
